A study of Mus musculus with 8 samples.

Results

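O-GlcNAc is a single N-acetylglucosamine sugar that cells place on serine and threonine residues of nuclear and cytosolic proteins and remove again. The hexosamine pathway makes its donor, UDP-GlcNAc, from fructose 6-phosphate, glutamine, acetyl-CoA and UTP, so the donor draws on sugar, amino acid, fat and nucleotide metabolism at once. One enzyme, OGT, adds the sugar and one enzyme, O-GlcNAcase, removes it, and in liver the mark sits on regulators of glucose and fat metabolism. UDP-GlcNAc also feeds the N-glycans of secreted proteins, which hepatocytes make in bulk.

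The genes described here are 6 of the 55335 genes in the deposited count table. They are Gfpt1, Gnpnat1, Pgm3 and Uap1, which encode the hexosamine pathway in order, Ogt, and Mgea5, the gene symbol under which O-GlcNAcase appears in GENCODE release M21. All 6 symbols matched 1 gene each and all 6 passed the filter on low counts. The set was chosen with results of the same genotype comparison in view. In that comparison, Mgea5 had the smallest p of all genes lower in Ripk1-hepKO and the second smallest of all genes tested. Genotype values of the members are therefore given as descriptions, with no test.

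Liver RNA came from 8 female mice, all fed ethanol by the chronic-plus-binge protocol of the NIAAA. In 4 mice, numbers 28, 34, 37 and 39, Ripk1 was deleted in hepatocytes (Ripk1-hepKO), and 4 mice, numbers 29, 32, 40 and 41, were the controls (Ripk1-Con). RIPK1 is a kinase and scaffold of death receptor signalling, and by its title the study asked whether it shields the alcohol-fed liver from stress of the endoplasmic reticulum (ER), cell death and inflammation. The Cre driver, the strain and the age of the mice are not given in the sources used here, and livers of mice not fed ethanol are not analysed here.

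Libraries held 28038390 to 67328158 counts, and the members 408 (Pgm3) to 6618 (Ogt) counts per library. Levels are CPM, which divide the counts of a gene by the size of its library, scaled here by TMM, and fold changes set Ripk1-hepKO over the controls on the log2 scale with the standard error of the edgeR fit. The targeted gene, Ripk1, ran from 23.1 to 38.1 CPM in Ripk1-hepKO and from 27.8 to 53.6 CPM in Ripk1-Con, so the groups overlapped, and whole-gene counts do not resolve the loss of an exon. Genotype directions rest on the labels. Values listed per mouse keep 1 order throughout, mice 28, 34, 37 and 39 for Ripk1-hepKO and mice 29, 32, 40 and 41 for controls. Mouse 28 stood apart, with a mean Spearman correlation of 0.954 with the other libraries against 0.974 to 0.980 for the rest, and results that rest on it are given with and without it. Defining hepatocyte genes were abundant in each mouse, with Alb at 48460 to 90590 CPM. In bulk tissue, fewer cells of a type and less RNA per cell cannot be told apart.

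Stretches just upstream of the RefSeq transcription start are shown for 4 members, because the results below turn on Mgea5 and on how Ogt, Gfpt1 and Uap1 varied between mice. They come from RefSeq (GRCm38.p6), where 5 of the 6 members matched by symbol or as Oga, the RefSeq symbol of Mgea5, and Gnpnat1 did not. Each runs 5′ to 3′ on the gene's strand, ends at the base before the RefSeq start and stops where an exon of the GENCODE annotation begins. The RefSeq start of Mgea5 lies inside the GENCODE gene, so its stretch is upstream of the RefSeq start and downstream of the first GENCODE start, between GENCODE exons. Capitals mark matches to the letters named after the sequences.
Mgea5, chr19:45783554-45783694, minus strand: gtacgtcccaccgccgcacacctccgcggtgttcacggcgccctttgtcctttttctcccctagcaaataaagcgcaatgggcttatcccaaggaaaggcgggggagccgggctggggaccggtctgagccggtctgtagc
Ogt, chrX:101639801-101640050, plus strand: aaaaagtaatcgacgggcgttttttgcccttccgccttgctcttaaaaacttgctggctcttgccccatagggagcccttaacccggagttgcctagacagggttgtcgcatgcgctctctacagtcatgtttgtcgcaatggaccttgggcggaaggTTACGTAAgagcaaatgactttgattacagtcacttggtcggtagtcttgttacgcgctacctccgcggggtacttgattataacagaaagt
Gfpt1, chr6:87042596-87042845, plus strand: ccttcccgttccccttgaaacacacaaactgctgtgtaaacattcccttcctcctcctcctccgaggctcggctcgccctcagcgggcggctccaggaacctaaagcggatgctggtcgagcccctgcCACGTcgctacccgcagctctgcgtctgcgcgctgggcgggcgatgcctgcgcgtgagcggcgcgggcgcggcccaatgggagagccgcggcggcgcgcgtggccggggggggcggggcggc
Uap1, chr1:170174965-170175179, minus strand: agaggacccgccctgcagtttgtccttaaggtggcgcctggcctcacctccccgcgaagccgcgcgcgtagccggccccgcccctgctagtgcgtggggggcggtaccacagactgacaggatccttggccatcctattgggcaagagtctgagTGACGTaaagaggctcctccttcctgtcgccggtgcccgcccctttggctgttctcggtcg

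The letters searched were those of known binding sites for the stress factors ATF4, ATF6 and XBP1, on both strands of windows from 250 bases before to 50 after the start. The strings TGACGT and TTACGTAA were added after the sequences had been read. Gfpt1 held ACGTG, the core bound by XBP1, on the opposite strand 122 bases before the start, and 19.6% of 32851 promoter windows hold it. Uap1 held TGACGT, the core of cAMP response elements, 61 bases before the start, and 7.51% of windows hold it. Past the start, Uap1 held TGACGT at base 2 and ACGTG at base 4, which overlap, and Pgm3 held ACGTG on the opposite strand at base 25. The Ogt window shown held TTACGTAA, a palindrome that the D-box factors of the circadian clock can bind, 92 bases before the start, and 0.119% of windows hold it. None of the members' windows held TGACGTGG (in 0.676% of windows, and overlapping both shorter strings), TGATGNAA (3.97%), CCAAT and CCACG 9 bases apart (0.119%), or ATTGG and CCACG 1 base apart (0.0365%). A match shows only that the letters are there.

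Mgea5, which removes the sugar, was lower in every Ripk1-hepKO mouse than in any control. Ripk1-hepKO livers held 52.8, 49.2, 38.4 and 41.9 CPM and control livers 75.6, 74.6, 70.3 and 66.9 CPM. Controls lay close together and the gap between the groups was wider than the range within the controls. On average the groups held 45.6 ± 6.60 and 71.9 ± 4.03 CPM (SD, n = 4 each), giving a log2 fold change of -0.66 ± 0.12 (SE). Mouse 28 did not set this difference, since without it the log2 fold change was -0.73, and leaving out each mouse in turn gave -0.73 to -0.58. The gene (ENSMUSG00000025220) lies on chromosome 19, 45750259 to 45783837 (GRCm38, minus strand), and its 3′ end shares 551 exonic positions with the antisense gene Gm15491, which had at most 2 counts in a library.

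**Figure D1:**
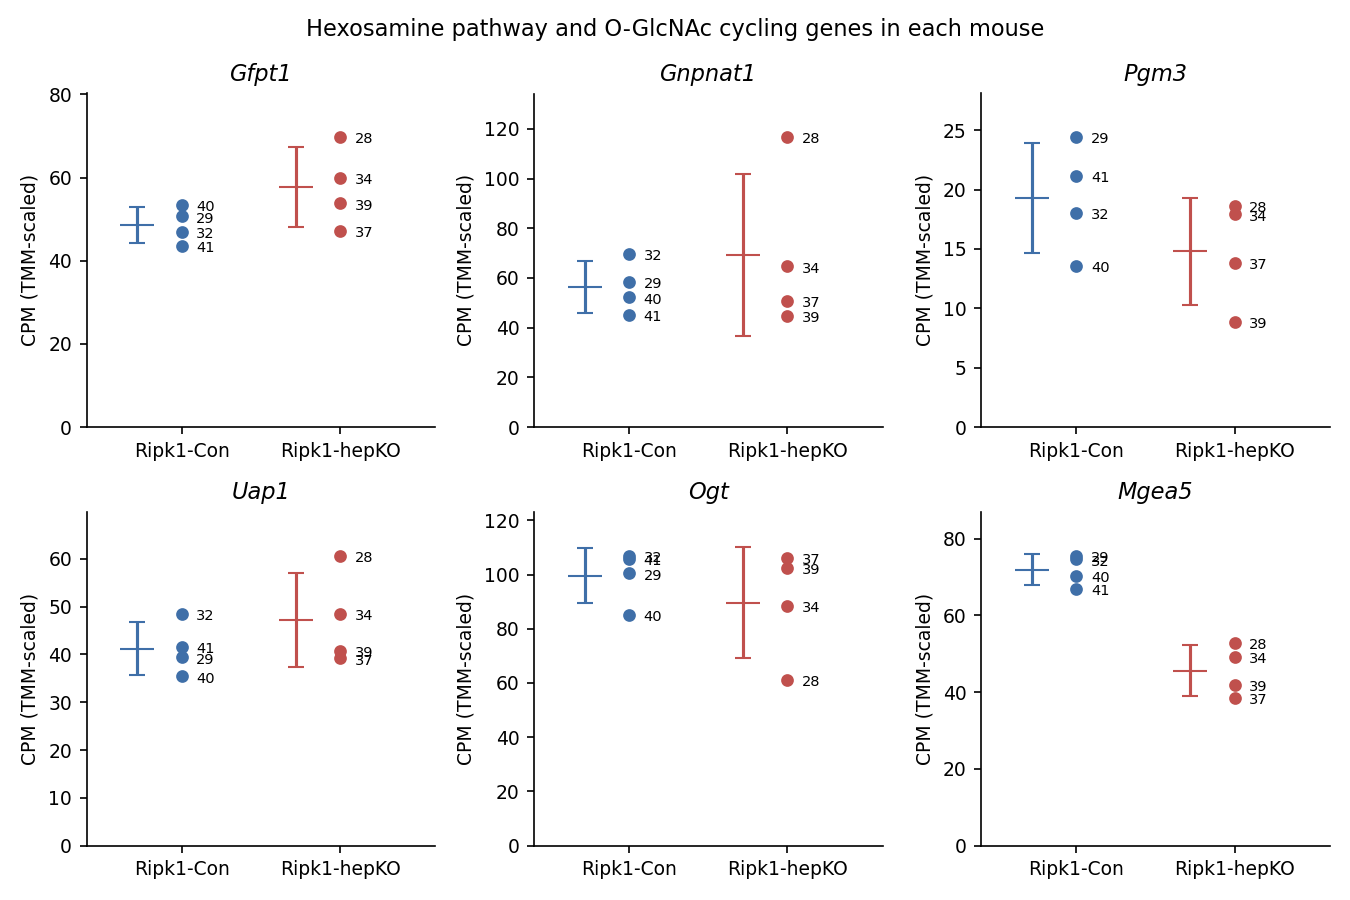
Points are the TMM-scaled CPM of each gene in each mouse, labelled by mouse number, for Ripk1-Con (blue) and Ripk1-hepKO (red), and bars are the mean and SD of 4 mice. Mgea5 is the only panel of the 6 whose groups do not overlap, and mouse 28 is the highest point for Gfpt1, Gnpnat1 and Uap1 and the lowest for Ogt.

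Of the 6 members, only Mgea5 had groups that did not overlap. Such a gap with Ripk1-hepKO lower was found for 319 of 15234 genes tested (2.09%), and one with Ripk1-hepKO higher for 306 (2.01%). With edgeR's quasi-likelihood test, 0 of the 6 members and 0% of all genes passed an FDR of 0.05, while 1017 genes lay under 0.05 before adjustment. The limma voom fit also called 0 genes, with 1009 at an unadjusted p under 0.05. The DESeq2 Wald test called 36 of 15173 genes (0.237%), 14 higher and 22 lower in Ripk1-hepKO, and Mgea5 was the only member among them. As Mgea5 was chosen on this contrast, these counts describe its place and are no test of it.

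Ogt, which adds the sugar, did not separate the genotypes. Ripk1-hepKO livers held 61.2, 88.5, 106 and 102 CPM and control livers 100.4, 107, 85.1 and 106 CPM. Mouse 28 was the lowest of the 8, and the other 3 Ripk1-hepKO mice lay within the control range. On average the groups held 89.6 ± 20.4 and 99.6 ± 10.1 CPM (SD, n = 4 each), giving a log2 fold change of -0.15 ± 0.17 (SE), which was -0.01 without mouse 28. Ogt (ENSMUSG00000034160) lies on the X chromosome, 101640060 to 101684351 (plus strand), and all mice were female.

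Among the Ripk1-hepKO mice, the order of Ogt with TMM scaling was the reverse of that of Mgea5. Mouse 37 had the most Ogt and the least Mgea5, followed by mice 39, 34 and 28. This order depended on the scaling: by library totals alone, mouse 39 had the most Ogt but mouse 37 the least Mgea5. The controls did not show the reversal, as mouse 40 had the least Ogt but mouse 29 the most Mgea5. The number of Ogt counts per Mgea5 count, which needs no scaling between libraries, was 1.16, 1.80, 2.76 and 2.44 in Ripk1-hepKO mice 28, 34, 37 and 39. It was 1.33, 1.43, 1.21 and 1.58 in Ripk1-Con mice 29, 32, 40 and 41. Controls kept a narrow range, 3 Ripk1-hepKO mice lay above it, and mouse 28 lay below it. The mean log2 ratio was 0.95 ± 0.56 with Ripk1 deleted against 0.47 ± 0.16 in controls (SD, n = 4 each), a difference of 0.49, which was 0.73 without mouse 28 and 0.32 without mouse 37. The ratio carries the Mgea5 difference, and Mgea5 was chosen on the genotype comparison, so the ratio describes the pair and is no separate support. Mgea5 falls into separate groups by genotype, each with too few mice for a correlation with Ogt.

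**Figure D2:**
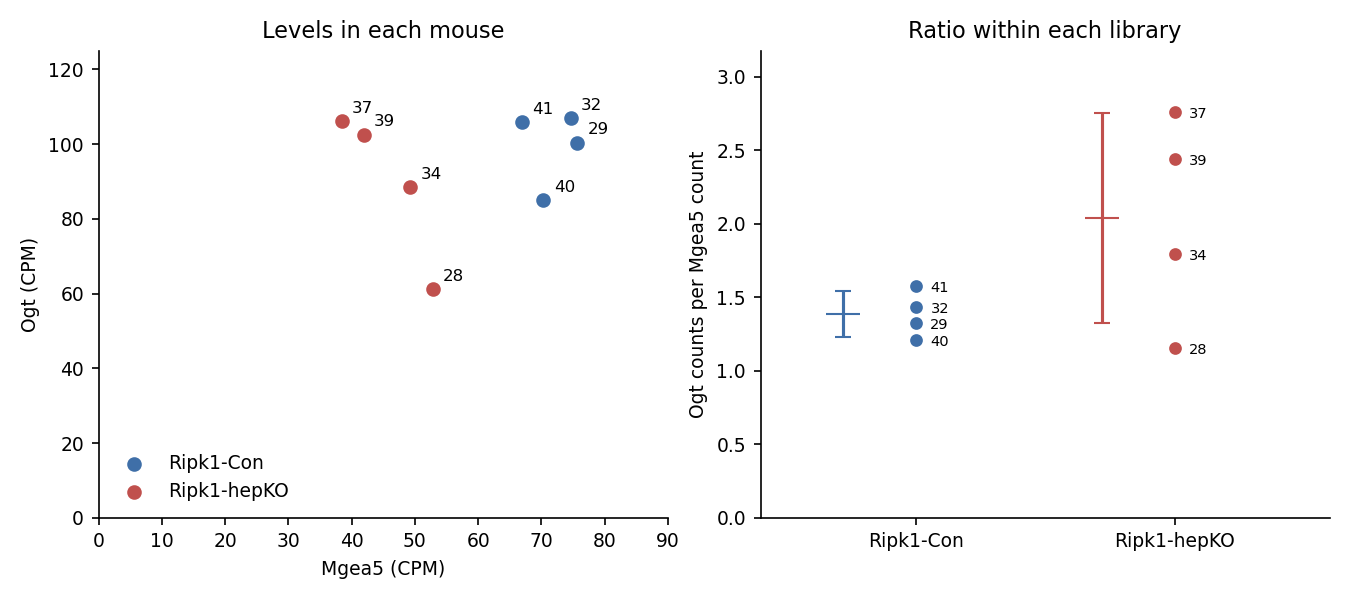
Left, Ogt against Mgea5 in TMM-scaled CPM, with 1 point for each mouse (blue, Ripk1-Con; red, Ripk1-hepKO). Right, Ogt counts per Mgea5 count in each library with the mean and SD of 4 mice: controls sit between 1.21 and 1.58, and Ripk1-hepKO mice between 1.16 and 2.76.

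The entry enzyme of the pathway, GFAT1, which moves the amide nitrogen of glutamine to fructose 6-phosphate and sets the pathway's rate, is encoded by Gfpt1. Ripk1-hepKO livers held 69.8, 59.9, 47.2 and 53.8 CPM and control livers 50.7, 46.9, 53.4 and 43.6 CPM. Ripk1-hepKO mice 28, 34 and 39 lay above all controls and mouse 37 lay among them. On average the groups held 57.7 ± 9.60 and 48.6 ± 4.30 CPM (SD, n = 4 each), giving a log2 fold change of 0.25 ± 0.13 (SE), which was 0.14 without mouse 28. Gfpt1 (ENSMUSG00000029992) lies on chromosome 6, 87042846 to 87092197 (plus strand).

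Gnpnat1 encodes the acetyltransferase of the next step, which uses acetyl-CoA. Ripk1-hepKO livers held 117, 64.7, 50.9 and 44.8 CPM and control livers 58.4, 69.8, 52.2 and 45.3 CPM. Mouse 28 alone stood far above the others, which interleaved. The means of 69.3 ± 32.7 and 56.4 ± 10.4 CPM (SD, n = 4 each) gave a log2 fold change of 0.30 ± 0.29 (SE), which turned to -0.08 without mouse 28. Gnpnat1 (ENSMUSG00000037722, chromosome 14, 45376334 to 45404913, minus strand) shares 3878 of its 4735 exonic positions with Styx on the opposite strand. The strand setting of the counting is not given in the sources used here, so reads of the pair may be mixed, and Styx itself stood at 7.67 to 11.6 CPM.

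Pgm3, the mutase that moves the phosphate group of the sugar, was the member with the fewest counts. Ripk1-hepKO livers held 18.6, 17.9, 13.8 and 8.86 CPM and control livers 24.4, 18.01, 13.6 and 21.1 CPM. The groups overlapped, with the lowest value in mouse 39 and the highest in mouse 29. The means of 14.8 ± 4.48 and 19.3 ± 4.63 CPM (SD, n = 4 each) gave a log2 fold change of -0.38 ± 0.25 (SE), with the other 3 enzymes above 0 (Gnpnat1 only with mouse 28), and it was -0.20 without mouse 39. Pgm3 (ENSMUSG00000056131, chromosome 9, 86554377 to 86571842, minus strand) shares 1270 exonic positions with Dop1a on the opposite strand, at 13.5 to 28.2 CPM.

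Uap1 encodes the pyrophosphorylase that joins the sugar phosphate to UTP and so makes UDP-GlcNAc. Ripk1-hepKO livers held 60.7, 48.5, 39.1 and 40.7 CPM and control livers 39.4, 48.5, 35.4 and 41.6 CPM. Again mouse 28 was the highest and the remaining mice interleaved. The means of 47.3 ± 9.84 and 41.2 ± 5.49 CPM (SD, n = 4 each) gave a log2 fold change of 0.20 ± 0.16 (SE), which was 0.05 without mouse 28. Uap1 (ENSMUSG00000026670) lies on chromosome 1, 170141938 to 170174957 (minus strand).

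Per length, Ogt, Gnpnat1 and Uap1 were the most abundant members in the controls, Gfpt1 and Pgm3 the least, and Mgea5 lay between. In CPM per kb of merged exons, Ripk1-Con levels were 12.4 ± 1.25 for Ogt, 11.9 ± 2.203 for Gnpnat1 and 10.3 ± 1.37 for Uap1 (SD, n = 4), and these neighbours did not differ beyond their spread. Mgea5 followed at 8.36 ± 0.469, then Gfpt1 at 4.83 ± 0.427 and Pgm3 at 4.30 ± 1.03, of which the last pair lay within their spread. Merged exons pool all annotated transcripts, which include retained-intron forms for each member, so the order between genes depends on the annotation. Reads of Gnpnat1 may also be mixed with those of Styx. In Ripk1-hepKO the level of Mgea5 was 5.31 ± 0.768 per kb, next to Gfpt1 at 5.73 ± 0.953, whereas in the controls it lay above Gfpt1 in every mouse. The paralogs of the pathway were lower than the members: Gfpt2, the second GFAT, stood at 0.178 CPM per kb in Ripk1-Con and 0.200 in Ripk1-hepKO, and Uap1l1, related to Uap1, at 1.35 and 1.68.

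**Figure D3:**
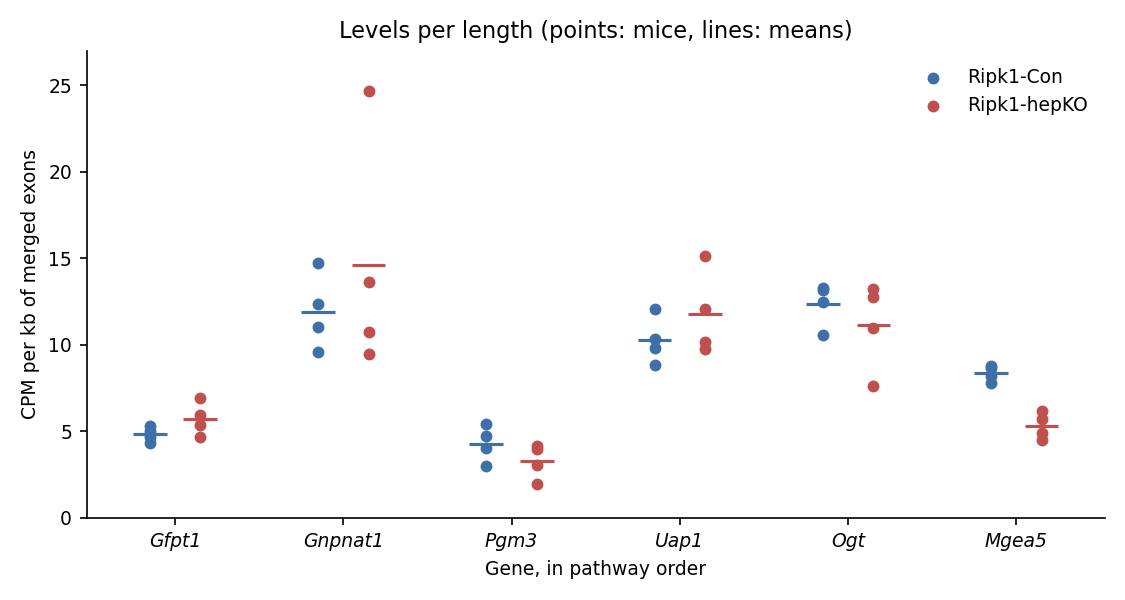
Points are CPM per kb of merged exons in each mouse and lines are means of 4 mice, with Ripk1-Con in blue and Ripk1-hepKO in red. Ogt, Gnpnat1 and Uap1 lie above Gfpt1 and Pgm3, and Mgea5 moves from between them in the controls to the level of Gfpt1 in Ripk1-hepKO.

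Of the 4 hexosamine enzymes, Gfpt1, Gnpnat1 and Uap1 varied between mice along with a factor of the ER stress response. XBP1 and ATF4 are transcription factors of that response and are known activators of hexosamine pathway genes. Relations were computed for 18 pairs over the 8 mice as log2(CPM + 1), with two-sided exact permutation p adjusted over the 18 pairs. They are the 10 pairs among the 5 members other than Mgea5, and each pathway enzyme with Xbp1 and with Atf4. Of these pairs, 5 had an adjusted p under 0.05 by Pearson's r, and 0 by Spearman's rho, for which the lowest adjusted p was 0.0821. Mouse 28, whose library stood apart from the rest, had the most Xbp1 and the most Atf4. How many other genes varied as closely with Xbp1 or Atf4 was not tested. The relations with these factors are therefore not shown to be particular to the enzymes.

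Gfpt1 varied with Atf4, whose levels were 241, 132, 86.7 and 106 CPM in Ripk1-hepKO livers and 90.5, 102, 108 and 79.9 CPM in control livers. Pearson's r was 0.94 (n = 8, exact permutation p = 6.20e-04, adjusted 0.00759) and Spearman's rho 0.90 (p = 0.00456, adjusted 0.0821). Without mice 28 and 41, the farthest from the Atf4 median, r was 0.86, and without mouse 28 alone it was 0.91 (adjusted p = 0.0929, exact permutation). As deviations from the genotype mean, r was 0.92. The size of r thus lasted without mouse 28, while the adjusted p passed only with it.

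Uap1 and Gnpnat1 varied with Xbp1, whose levels were 487, 307, 212 and 186 CPM in Ripk1-hepKO livers and 260.4, 367, 159 and 224 CPM in control livers. For Xbp1 and Uap1, r was 0.94 (n = 8, exact permutation p = 8.43e-04, adjusted 0.00759) and rho 0.86 (p = 0.0107, adjusted 0.0923). Without mice 28 and 32, the farthest from the Xbp1 median, this r was 0.82, without mouse 28 alone 0.89 (adjusted p = 0.0929, exact permutation), and as deviations from the genotype mean 0.96. For Xbp1 and Gnpnat1, r was 0.90 (n = 8, exact permutation p = 0.00181, adjusted 0.0109) and rho 0.83 (p = 0.0154, adjusted 0.0923). That r was 0.68 without mice 28 and 32, 0.82 without mouse 28 alone (adjusted p = 0.160, exact permutation) and 0.89 as deviations. Xbp1 and Gfpt1 did not pass. Their r was 0.50 (n = 8, exact permutation p = 0.208, adjusted 0.288), rho was 0.19, and r was -0.05 without mouse 28. Counts of a whole gene do not separate the spliced, active form of Xbp1 RNA from the unspliced one.

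Ogt and Gfpt1 varied in opposite directions, with r = -0.90 (n = 8, exact permutation p = 0.00332, adjusted 0.0150) and rho = -0.81 (p = 0.0218, adjusted 0.0980). Without mice 28 and 40 this r was -0.88, without mouse 28 alone -0.76 (adjusted p = 0.193, exact permutation), and with libraries scaled by their totals alone -0.55 (adjusted p = 0.253). As deviations from the genotype mean it was -0.92. Many genes opposed Ogt as strongly: on that measure 192 of 8971 genes of at least 5 CPM lay at -0.9 or below. Gnpnat1 and Uap1 varied together at r = 0.88 (n = 8, exact permutation p = 0.00813, adjusted 0.0293), with rho = 0.60 (p = 0.132, adjusted 0.389). Without mice 28 and 32 this r was 0.43. It was 0.64 without mouse 28 alone (adjusted p = 0.439, exact permutation) and 0.87 without mouse 32 alone (adjusted p = 0.0579), so the relation rests mainly on mouse 28. Atf4 and Gnpnat1 had an r close to that of Xbp1 and Gnpnat1, at 0.88, but its adjusted p was 0.0558 (n = 8, exact permutation), and r was 0.47 without mouse 28. With libraries scaled by totals alone, Ogt and Gnpnat1 (r = -0.95, adjusted p = 0.0350) and Atf4 and Uap1 (r = 0.82, adjusted p = 0.0494) passed by the exact permutation test, which they did not with TMM (r = -0.81 and 0.81). With TMM and without mouse 28, r of these pairs was -0.17 and 0.40. None of the Pgm3 pairs passed: its r was -0.07 with Gfpt1, 0.37 with Gnpnat1, 0.29 with Uap1, 0.52 with Xbp1 and 0.02 with Atf4 and -0.11 with Ogt, with exact permutation p of 0.192 to 0.966 over n = 8 and adjusted p of 0.288 to 0.966.

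**Figure D4:**
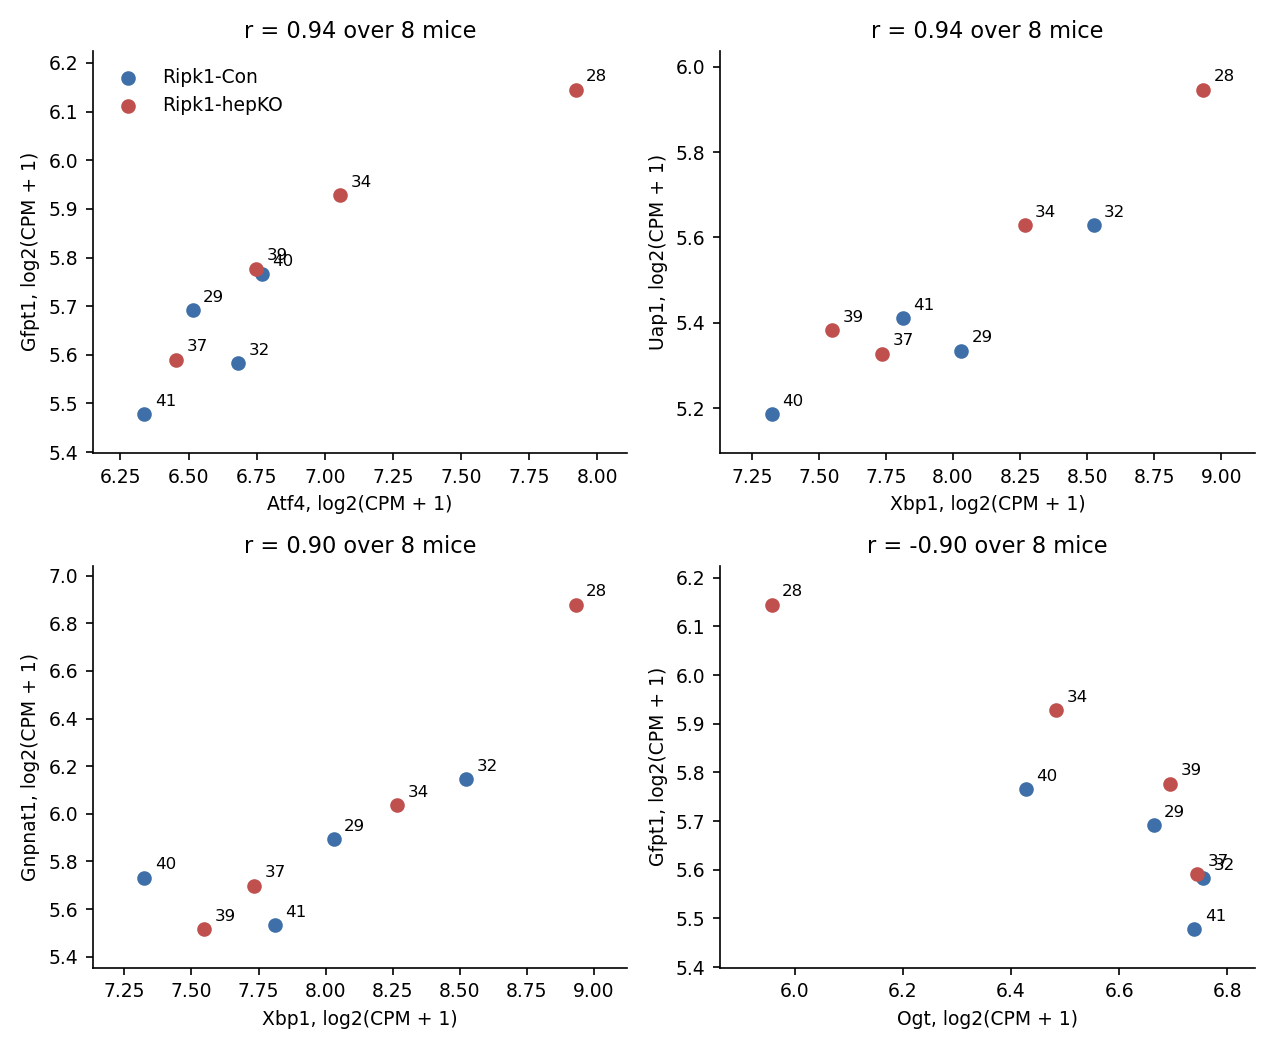
Points are mice, labelled by number, as log2(CPM + 1) of the genes on the axes (blue, Ripk1-Con; red, Ripk1-hepKO). Mouse 28 lies at an end of each panel, and r is 0.94 for Atf4 with Gfpt1, 0.94 for Xbp1 with Uap1, 0.90 for Xbp1 with Gnpnat1 and -0.90 for Ogt with Gfpt1, the last being -0.55 with libraries scaled by totals alone.

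Genes with the mouse-to-mouse pattern most like that of Mgea5 and Ogt were sought among 8971 genes of at least 5 CPM, by Pearson's r of deviations from the genotype mean over the 8 mice, as a description. For Mgea5 they were Tmem214, Tmf1, Fam84b, Alyref and Polr2c, with r from 0.97 to 0.99, and 64 genes reached 0.9. Their log2 fold changes between genotypes ran from -0.11 to 0.27, against -0.66 for Mgea5. For Ogt they were Gatad1, Per2, Ctso, Trp53inp2 and Ccdc58, with r from 0.98 to 0.99. For Ogt, 200 genes reached 0.9 and 192 lay at -0.9 or below. The log2 fold changes of the 5 genes named for Ogt ran from -0.40 (Trp53inp2) to 0.03 (Ctso), against -0.15 for Ogt. Per2, a repressor of the circadian clock, lay between them at -0.21. Its levels were 61.3 ± 22.1 CPM in Ripk1-hepKO livers against 70.7 ± 12.4 in control livers (SD, n = 4 each). Mouse 28 was the lowest of the 8 for Per2, as it was for Ogt. No r of this search is given without that mouse. Per2 was not the closest match to Ogt, with r = 0.983 against 0.988 for Gatad1. A link to the clock factor letters upstream of Ogt was not tested.

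Around the members, 7 to 18 genes were tested in each of 8 pathway lists, and edgeR and DESeq2 called 0 of them, where edgeR called 0% and DESeq2 0.237% of all genes. No list held more than 1 gene whose groups did not overlap. Over all genes tested, 2.09% had such a gap with Ripk1-hepKO lower and 2.01% with it higher. The gaps of Pfkfb3, Mgat2, Sin3a and Sp1 below are therefore descriptions of single genes and no result about their lists. Of 15234 genes tested, 7886 had a log2 fold change above 0. The genes of a list were measured in the same 8 mice, so their signs are not independent and the counts of signs are descriptions. In amino sugar salvage, with the paralogs, the log2 fold change was positive for 7 of 8 genes and its median was 0.21, against 0.01 for all genes tested. This median was 0.11 without mouse 37 and 0.14 without mouse 28. Its members of smallest p were Npl, which cleaves sialic acid, with means of 1.03 ± 0.324 CPM in Ripk1-hepKO and 0.568 ± 0.201 CPM in controls (SD, n = 4 each, here and for the list genes below), and Nagk, the GlcNAc kinase, at 9.45 ± 0.938 and 8.17 ± 0.789. Glucose and glutamine supply had 12 of 15 genes above 0 and a median of 0.23, which was 0.074 without mouse 28. Leaving out control mouse 29 or 41 gave 0.11 or 0.14. There Pfkfb3, which makes the activator of phosphofructokinase, stood at 11.4 ± 1.89 and 8.09 ± 1.28 CPM with groups that did not overlap. Uridine nucleotide supply was even, with 6 of 12 genes above 0 and a median of -0.01, and its smallest p belonged to Upp2 (51.1 ± 33.2 and 30.9 ± 8.59 CPM), a uridine phosphorylase, and Uck2 (11.8 ± 3.99 and 9.06 ± 1.74), a uridine kinase.

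The consumers of UDP-GlcNAc had a median log2 fold change of 0.15, with 11 of 16 genes above 0, and the median was 0.090 without mouse 28. Mgat2, which adds a GlcNAc branch to N-glycans, held 48.4, 52.2, 41.8 and 50.7 CPM in Ripk1-hepKO livers and 31.5, 37.7, 40.5 and 32.4 CPM in control livers. Its groups did not overlap, and its log2 fold change of 0.44 ± 0.12 (SE) did not pass (edgeR adjusted p = 0.742). Mgat4b, a further branching enzyme, stood at 30.0 ± 1.65 and 24.4 ± 4.02 CPM. The sialic acid branch, which also starts from UDP-GlcNAc, had 4 of 8 genes above 0 and a median of 0.01. In it, St3gal4, a sialyltransferase, stood at 103 ± 49.1 and 68.7 ± 15.8 CPM and Gne, the enzyme of entry, at 114 ± 39.9 and 148 ± 42.6. The medians near 0, those of uridine supply, the sialic acid branch, transporters and OGT partners, changed sign when single mice were left out. Nucleotide sugar transporters had 4 of 7 above 0 and a median of 0.05, with Slc35d2 at 23.4 ± 2.13 and 19.5 ± 1.75 CPM and Slc35a5 at 12.5 ± 3.47 and 17.0 ± 2.57.

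Proteins that OGT binds had a median log2 fold change of 0.04, with 7 of 13 genes above 0. Sin3a, a corepressor scaffold, stood at 19.4 ± 2.41 CPM against 22.5 ± 1.87 CPM in controls with groups that did not overlap, and Trak1, an adaptor of mitochondrial transport, at 61.6 ± 11.2 and 70.9 ± 9.99. Transcription factors known to carry O-GlcNAc had 12 of 18 genes below 0 and a median of -0.20 (-0.11 without mouse 28), where 48.2% of all genes tested lay below 0. Sp1, the factor on which O-GlcNAc was studied early, held 37.6, 33.3, 30.4 and 34.8 CPM in Ripk1-hepKO livers and 41.3, 50.7, 41.5 and 44.2 CPM in control livers. Its groups did not overlap, and its log2 fold change of -0.39 ± 0.11 (SE) did not pass (edgeR adjusted p = 0.742). Ppara, the receptor that drives fatty acid oxidation, stood at 61.1 ± 29.2 and 120.0 ± 28.9 CPM, with groups that overlapped (log2 fold change -0.97 ± 0.33, edgeR adjusted p = 0.742).

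**Figure D5:**
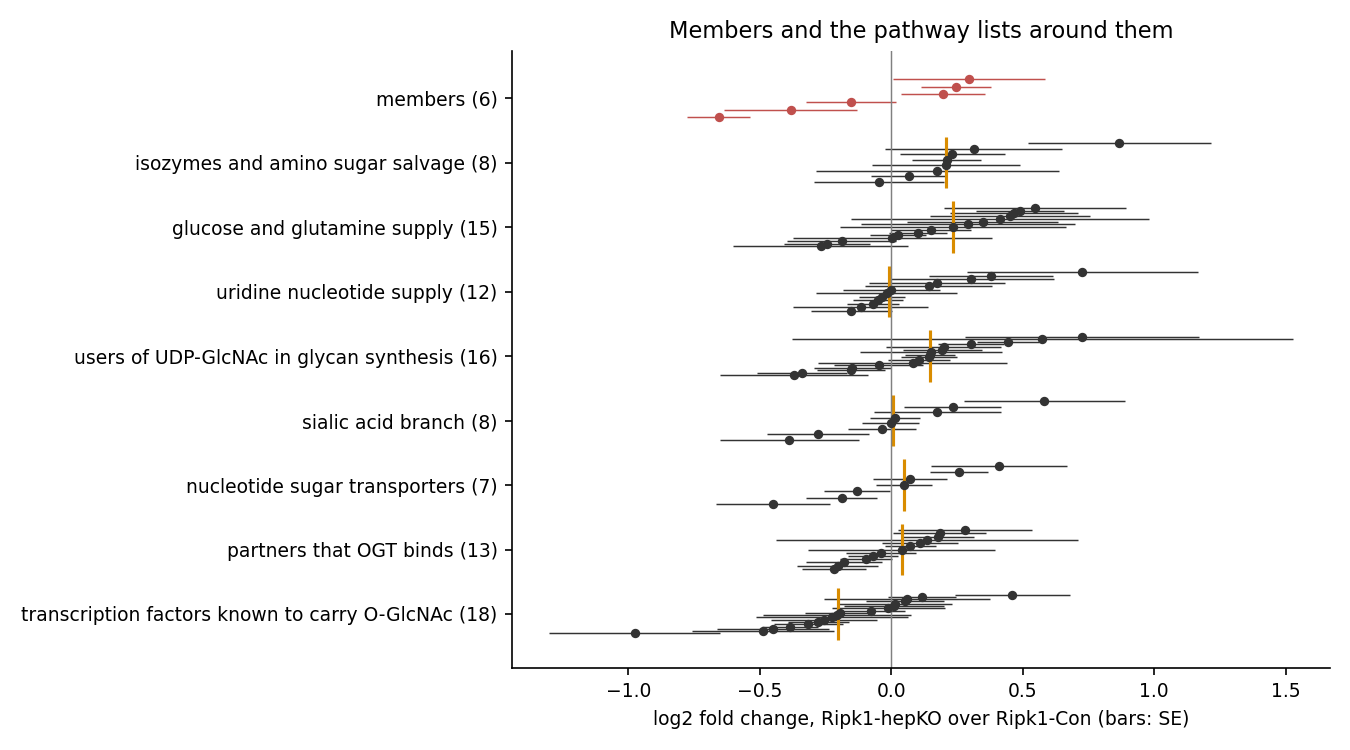
Points are log2 fold changes of Ripk1-hepKO over Ripk1-Con with bars of 1 SE, for the 6 members (red) and the tested genes of each list (black, number in brackets), and orange lines are list medians. Mgea5 is the leftmost red point, and list medians run from -0.20 for transcription factors to 0.23 for glucose and glutamine supply.

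Marker sums of liver cell types did not overlap between genotypes in 1 of 9 lists. The summed level of 6 hepatocyte markers was 61340 to 85310 CPM in Ripk1-hepKO and 90240 to 107200 CPM in Ripk1-Con, with no overlap, and all 6 markers had the lower mean in Ripk1-hepKO. Alb made up most of that sum, and as a mean of log2(CPM + 1), which weights the genes evenly, the groups overlapped. Its part in the lower Mgea5 was not tested. None of the marker genes in the 9 lists was at 0 in all mice. Neutrophil, monocyte and macrophage, stellate and cholangiocyte marker sums overlapped between the genotypes, with higher Ripk1-hepKO means for 5 of 5, 5 of 6, 6 of 6 and 5 of 5 genes, and were each highest in mouse 28, at 43.4, 21.1, 169 and 62.7 CPM, the mouse with the most Gfpt1, Gnpnat1 and Uap1 and the least Ogt. Not all lists peaked there. Kupffer cell markers were highest in control mouse 41, at 303 CPM against 267 in mouse 28. Endothelial markers were highest in mouse 39, at 181 against 139.7 CPM, and B cell markers in mouse 29. Hepatocyte markers, at 61340 CPM, and T and NK cell markers were lowest in mouse 28. The part of these cells in the values of mouse 28 was not tested.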

How the data were processed

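Poly(A)-selected, strand-specific libraries of 8 mouse livers were read from both ends on an Illumina instrument, per the labels' protocols. The authors deposited 1 table of whole-number counts per Ensembl gene, not normalized. In the submitters' processing notes the aligner STAR 2.5.2b, the build GRCm38.p6, DESeq2 1.38.1, StringTie 2.2.1 and FastQC 0.11.5 appear without their roles. Which tool counted, and whether by strand, is not given in the sources used here. Symbols, positions and merged exon lengths came from GENCODE M21 (GRCm38), which matched 55154 of 55335 IDs.

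The genotype test used edgeR 4.0.16 under R 4.3.3 (filterByExpr, TMM, robust quasi-likelihood fit of genotype, Benjamini-Hochberg over 15234 genes, FDR 0.05) after a check on simulated data. Alternatives were DESeq2 size factors, library totals, no filter, 1 CPM in 4 libraries, DESeq2 1.42.0, limma voom 3.58.1, each mouse left out, and mice 28 and 40 left out together. Leaving out each mouse was added for the correlations after the data were seen. Correlations were tested by exact permutation over all pairings. No 2 libraries agreed within sampling noise (chi-square per degree of freedom at least 36.8). The table gives each mouse 1 library, described as an independent animal.

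The members, the 8 lists and the cell type markers were chosen with earlier results of these data known. Named genes are the members, Xbp1 and Atf4, for each list the 2 of smallest p and the paralogs of members, and for Mgea5 and Ogt the 5 genes most alike. Overlapping genes, markers and Ripk1 are named besides. A gene that the rule names is not reported here.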

Additional observations from a re-analysis of the deposited data

How the results depend on the processing

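The log2 fold changes of the 6 members moved by less than the spread between mice under all 15 alternatives. Leaving out each mouse gave -0.73 to -0.58 for Mgea5, -0.24 to -0.01 for Ogt, 0.14 to 0.34 for Gfpt1, -0.08 to 0.46 for Gnpnat1, -0.51 to -0.20 for Pgm3 and 0.05 to 0.29 for Uap1. Without mice 28 and 40 the value was -0.11 for Gnpnat1, -0.01 for Uap1 and -0.65 for Pgm3. The count of genes called was 0 under 14 alternatives and 36 with DESeq2.

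List medians were within the spread between mice except for glucose and glutamine supply (0.10 without mice 28 and 40, 0.074 to 0.30 with each mouse left out), consumers of UDP-GlcNAc (0.090 to 0.18 with each mouse left out), nucleotide sugar transporters (-0.059 without mice 28 and 40) and OGT partners (-0.051 with limma voom, -0.075 to 0.075 with each mouse left out). The difference in log2 Ogt to Mgea5 ratio was 0.32 to 0.73.

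With each mouse left out, r was 0.91 to 0.96 for Atf4 and Gfpt1, 0.89 to 0.97 for Xbp1 and Uap1, 0.82 to 0.96 for Xbp1 and Gnpnat1, 0.64 to 0.92 for Gnpnat1 and Uap1 and -0.93 to -0.76 for Ogt and Gfpt1. Adjusted p rose above 0.05 in all 5 pairs without mouse 28, and for Gnpnat1 and Uap1 also without mouse 34 or 32. Without the 2 mice farthest from the x median, which leaves 6 mice, r was 0.86, 0.82, 0.68, 0.43 and -0.88 in the same order, and no adjusted p was under 0.05. Gnpnat1 and Uap1 did not pass as deviations from the genotype mean (0.88) or with library totals (0.78), nor did Ogt and Gfpt1 with library totals (-0.55). With library totals, Ogt and Gnpnat1 (-0.95) and Atf4 and Uap1 (0.82) passed. No paired analysis was possible because mouse numbers are not shared between genotypes. Counts of at least 408 per library for each member leave the spread between mice as the main limit.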
